A study of Mus musculus with 17 samples.

Results

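The genes followed here were the 4 Notch receptor genes (Notch1, Notch2, Notch3 and Notch4), 3 Delta ligand genes (Dll1, Dll3 and Dll4) and the 3 Fringe genes (Lfng, Mfng and Rfng), taken by symbol from the deposited count tables. All 10 were among the 23284 gene symbols counted, and all 10 were kept by the filter on low counts in every comparison. The 17 libraries were RNA-seq of primary mouse tumours, which the labels call pituitary and neuroendocrine and which arose in a genetically engineered model. The genotype label was Rb1/Trp53 for 9 of them and Rb1/Trp53/Crebbp for 8, so engineered Rb1 and Trp53 alleles were common to both groups and Crebbp was the difference. Crebbp encodes a histone acetyltransferase, and the stated aim was to find genes that it regulates. The labels do not give the Cre driver, the age of the mice or whether each tumour had its own mouse, so a p-value here measures the spread between these tumours alone.

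The tumours were compared within 2 sets defined from the counts, which are not groups of the study. A library was Pomc-high if its Pomc count exceeded its Calca count (6 Rb1/Trp53 and 4 Rb1/Trp53/Crebbp) and Calca-high otherwise (3 and 4). Levels are CPM, a gene's count scaled to a common library total, on library sizes scaled by the trimmed mean of M-values (TMM), and gene counts summed to between 8328297 and 28140755 per library. Pomc itself chose the sets, so the label was checked with 2 other genes known from pituitary cells that express Pomc. Tbx19 was 304.9 to 418 CPM in the Pomc-high and 0 to 0.316 CPM in the Calca-high libraries, and Pax7 was 125 to 298 CPM and 0 to 0.183 CPM, at most 3 reads in any Calca-high library. Thyroid follicle genes summed to between 916 and 16778 CPM in the Calca-high libraries and 6.93 to 160 CPM in the others. Library T8 of the Pomc-high Rb1/Trp53/Crebbp tumours stood apart, with 781 CPM over an astroglia and pituicyte list against 93.3 to 224 CPM in the other 3 of its group, and with the lowest sum of Pomc, Tbx19 and Pax7 in its set, 94292 CPM. Crebbp had whole-gene levels of 39.7 to 116 CPM in the Rb1/Trp53 libraries and 42.8 to 93.3 CPM in the others, a count that cannot show a deleted exon and does not check the labels.

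Notch receptors are membrane proteins that are cut when a ligand on a neighbouring cell pulls on them, and the freed intracellular part joins the DNA-binding protein RBPJ to switch on genes such as Hes1. Dll1 and Dll4 activate receptors on the next cell, while Dll3 is known chiefly for acting on receptors within its own cell and for its expression in neuroendocrine tumours. Fringe enzymes add a sugar to the receptor and so shift which ligands it answers to. Notch4 and Dll4 are best known from endothelium and Notch3 from the mural cells around vessels.

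The start regions of 4 of the genes are shown because the values below turn on them: Dll3 and Lfng differed between the sets in their genotype difference, Dll1 was nearly absent from Pomc-high tumours, and Notch4 is the vascular receptor. Each is the 250 bases before a RefSeq start on GRCm38.p6, printed 5′ to 3′ in the direction of transcription, at chr7:28301786-28302035 (Dll3, minus strand), chr17:15376933-15377182 (Dll1, minus strand), chr5:140607091-140607340 (Lfng, plus strand) and chr17:34564045-34564294 (Notch4, plus strand). Capitals mark 3 motifs searched on both strands: TGGGAA (the core bound by RBPJ), CAGCTG (an E-box) and TGACG (a CRE half-site).
Dll3: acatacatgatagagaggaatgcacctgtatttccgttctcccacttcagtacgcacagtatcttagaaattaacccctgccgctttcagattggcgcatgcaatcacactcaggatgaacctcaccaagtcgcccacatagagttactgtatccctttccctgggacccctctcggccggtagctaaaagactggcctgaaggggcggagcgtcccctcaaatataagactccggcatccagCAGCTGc
Dll1: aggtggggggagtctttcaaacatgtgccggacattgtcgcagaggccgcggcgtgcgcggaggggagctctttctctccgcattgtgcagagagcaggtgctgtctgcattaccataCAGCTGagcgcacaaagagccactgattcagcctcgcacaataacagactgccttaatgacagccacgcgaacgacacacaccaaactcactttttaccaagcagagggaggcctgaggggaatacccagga
Lfng: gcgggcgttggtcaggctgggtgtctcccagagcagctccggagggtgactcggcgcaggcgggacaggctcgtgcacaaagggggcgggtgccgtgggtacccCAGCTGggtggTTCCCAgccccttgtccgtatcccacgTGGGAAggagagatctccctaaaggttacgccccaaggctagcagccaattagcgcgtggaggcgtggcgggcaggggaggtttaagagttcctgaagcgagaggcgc
Notch4: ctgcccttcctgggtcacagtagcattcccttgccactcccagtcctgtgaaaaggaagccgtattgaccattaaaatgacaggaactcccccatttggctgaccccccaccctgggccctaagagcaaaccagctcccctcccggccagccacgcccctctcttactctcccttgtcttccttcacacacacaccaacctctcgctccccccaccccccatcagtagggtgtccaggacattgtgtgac
An E-box of this spelling lay in 3 of the 9 members with an entry (Dll1, Dll3 and Lfng), and in 13% of 32851 start regions of the same length. The RBPJ core lay in 1 of the 9, Lfng, once on each strand, and in 21.6% of all. The CRE half-site lay in 2, Notch3 and Rfng, and in 17.8% of all. These are matches of letters, chosen after the data had been seen, and no more than a description.

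**Figure D1:**
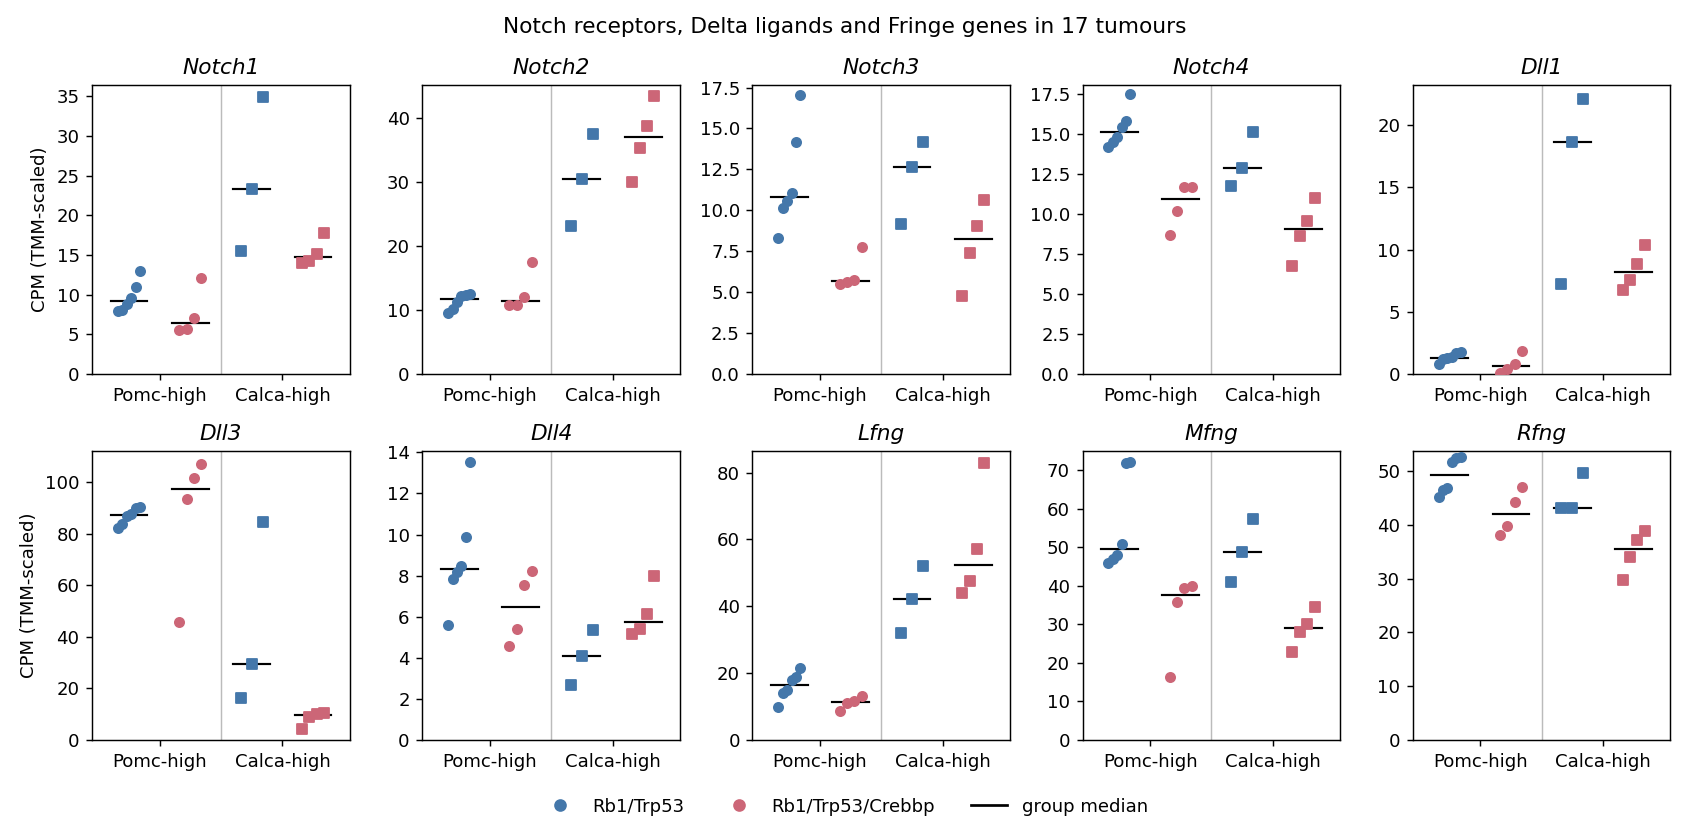
CPM of each member (linear axes) in each of the 17 tumours, by set and genotype; each point is 1 tumour and each bar the group median. Dll3 stands between 45.6 and 107 CPM in Pomc-high tumours and falls to 10.4 CPM or less in the 4 Calca-high Rb1/Trp53/Crebbp tumours.

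Among the receptors, Notch3 and Notch4 fell in the Pomc-high Rb1/Trp53/Crebbp tumours, and no receptor passed the test in the Calca-high tumours. Notch3 was 8.30 (lowest), 10.8 (median) and 17.04 CPM (highest) in the 6 Pomc-high Rb1/Trp53 tumours and 5.48, 5.60, 5.72 and 7.78 CPM in the 4 Rb1/Trp53/Crebbp tumours. The 4 lay below all 6, the highest of them being T8. The log2 fold change was -0.92 ± 0.20 (SE; adjusted p = 0.0153). All adjusted p-values, unless another tool is named, come from edgeR's quasi-likelihood test, adjusted by Benjamini-Hochberg over all genes. The value was -1.05 without T8. Notch3 in the Calca-high tumours was 12.6, 9.18 and 14.1 CPM against 4.75, 7.40, 9.07 and 10.6 CPM, overlapping, with a log2 fold change of -0.56 ± 0.27 (adjusted p = 0.137).

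Notch4 was 14.2, 15.1 and 17.5 CPM (lowest, median, highest) in the Pomc-high Rb1/Trp53 tumours and 10.2, 8.69, 11.7 and 11.7 CPM in the Rb1/Trp53/Crebbp tumours. The ranges did not overlap, and the log2 fold change was -0.52 ± 0.12 (adjusted p = 0.0217). Without Rb1/Trp53/Crebbp T5 the adjusted p was 0.0533 and the call was lost. Calca-high levels were 11.8, 12.9 and 15.1 CPM against 6.75, 9.54, 8.62 and 11.0 CPM, again without overlap, and the log2 fold change of -0.54 ± 0.19 did not pass (adjusted p = 0.0518), though it did with DESeq2 (adjusted p = 0.0316) and limma-voom (adjusted p = 0.0478), in 1 fit of all 17 libraries (adjusted p = 0.0128) and without Rb1/Trp53/Crebbp T4 (adjusted p = 0.044). The difference between the sets was 0.01 ± 0.21 (adjusted p = 0.985).

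Notch1, the receptor with the broadest roles in development, was 7.98, 9.22 and 13.02 CPM (lowest, median, highest) against 7.06, 5.75, 5.61 and 12.1 CPM in the Pomc-high tumours. T8 was the high tumour, and the ranges overlapped (-0.33 ± 0.23, adjusted p = 0.403; without T8 -0.63, adjusted p = 0.0621). Calca-high Notch1 levels were 35.0, 23.3 and 15.5 CPM against 15.1, 14.3, 14.1 and 17.7 CPM, so T1 and T3 were high and T4 lay among the Rb1/Trp53/Crebbp tumours (-0.67 ± 0.25, adjusted p = 0.0677; with DESeq2 0.0385). The Calca-high value turned on single tumours: it was -0.92 and passed without T4 (adjusted p = 0.0079), and was -0.33 without T1 (adjusted p = 0.243). Notch2 was 9.53, 11.7 and 12.6 CPM (lowest, median, highest) against 10.7, 12.1, 10.8 and 17.5 CPM in Pomc-high and 37.5, 30.4 and 23.1 CPM against 29.96, 35.4, 43.5 and 38.7 CPM in Calca-high tumours, overlapping in both. It was the one receptor with positive log2 fold changes in both sets, 0.20 ± 0.16 (adjusted p = 0.466) in Pomc-high and 0.30 ± 0.18 (adjusted p = 0.232) in Calca-high tumours. Neither passed the test.

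Of the 10 members, 2 fell and 0 rose in the Pomc-high tumours, where 8.42% of 14010 tested genes changed, 5.26% falling and 3.15% rising. The members' median log2 fold change was -0.49, against 0.01 over all tested genes. In the Calca-high tumours 3 fell and 0 rose, while 36.2% of 14797 genes changed, 17.1% falling and 19.1% rising, so the share of members called was close to that of all genes. The median there was -0.55, against -0.02. Ranges of the genotypes did not overlap, with Rb1/Trp53/Crebbp lower, for Notch3, Notch4 and Mfng in Pomc-high (5.87% of all genes in that direction, 9.73% in either) and for Notch4, Dll3, Mfng and Rfng in Calca-high tumours (22.5%, and 44.4% in either). This depends on the scale: on CPM without TMM scaling Mfng alone was left in Pomc-high and Dll3 alone in Calca-high tumours, where Dll4 then lay wholly higher in Rb1/Trp53/Crebbp. Without that scaling the median gene was itself higher in Rb1/Trp53/Crebbp, by 0.12 on the log2 scale in Pomc-high and 0.19 in Calca-high tumours.

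**Figure D2:**
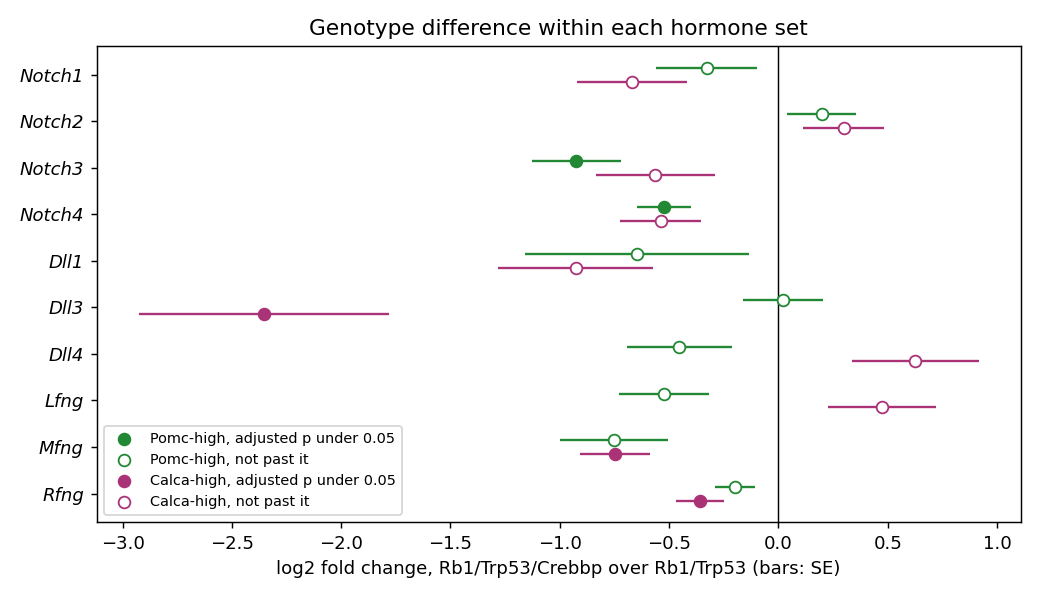
Log2 fold change of each member, Rb1/Trp53/Crebbp over Rb1/Trp53, in the 10 Pomc-high and 7 Calca-high tumours, with SE bars; filled points passed an adjusted p under 0.05. Dll3 stands at -2.35 in Calca-high and 0.02 in Pomc-high tumours.

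Among the ligands, Dll3 fell in the Calca-high Rb1/Trp53/Crebbp tumours, and no other Delta ligand passed the test in either set. It was 84.6, 29.3 and 16.2 CPM in the 3 Calca-high Rb1/Trp53 tumours (T1, T3 and T4) and 10.4, 4.28, 10.2 and 8.87 CPM in the 4 Rb1/Trp53/Crebbp tumours. All 4 lay below all 3, which were themselves spread widely, and T1 was far above the rest. The log2 fold change was -2.35 ± 0.57 (adjusted p = 0.0178), a 5.11-fold difference, and -1.42 without T1. With limma-voom the adjusted p was 0.056 and the call was lost. In the Pomc-high tumours Dll3 was 82.1, 87.2 and 90.3 CPM (lowest, median, highest) against 101, 107, 93.4 and 45.6 CPM. Here 3 of the 4 Rb1/Trp53/Crebbp tumours lay above all 6 others and T8 lay below them, and the log2 fold change was 0.02 ± 0.18 (adjusted p = 0.961), or 0.25 without T8.

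The genotype difference of Dll3 itself differed between the sets, by 2.37 ± 0.56 on the log2 scale (Pomc-high minus Calca-high, adjusted p = 0.0089), and by 1.5 without Rb1/Trp53 T1. With the tumour number as a block in the fit it was 1.73 ± 0.52 and did not pass (adjusted p = 0.0807). Of 15432 genes tested for such a difference 22.9% passed, among the members Dll3 and Lfng.

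Dll1 was near its detection limit in Pomc-high tumours, at 0.781, 1.33 and 1.81 CPM (lowest, median, highest) against 0.105, 0.81, 0.44 and 1.86 CPM, the last 4 from 1 to 23 reads per library. On these few reads the log2 fold change of -0.65 ± 0.51 did not pass (adjusted p = 0.463). It was -1.41 without Rb1/Trp53/Crebbp T8, the highest of the 4. The part of depth in this was not tested. Calca-high levels were 22.1, 18.6 and 7.22 CPM against 10.3, 7.52, 6.77 and 8.81 CPM. T1 and T3 were high, T4 lay among the Rb1/Trp53/Crebbp tumours, and the log2 fold change of -0.93 ± 0.35 did not pass (adjusted p = 0.0734; with DESeq2 0.0336). It was -1.28 and passed without T4 (adjusted p = 0.00342), and was -0.62 without T1 (adjusted p = 0.234).

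Dll4, the ligand of sprouting endothelium, was 5.62, 8.31 and 13.5 CPM (lowest, median, highest) against 8.22, 4.57, 5.39 and 7.54 CPM in the Pomc-high tumours (-0.45 ± 0.24, adjusted p = 0.264). Calca-high levels were 2.65, 4.10 and 5.37 CPM against 6.12, 5.38, 7.98 and 5.15 CPM, where T4 overlapped the Rb1/Trp53/Crebbp range (0.63 ± 0.29, adjusted p = 0.125). The signs were opposite, and the difference between the sets, -1.08 ± 0.39, did not pass (adjusted p = 0.0554; with DESeq2 0.0341, with limma-voom 0.0366). A short antisense transcript, Gm14207, overlaps Dll4 by 214 bases, and the library kit does not mark strand. Notch1, Notch2, Notch3 and Dll1 also overlap other transcripts.

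Among the Fringe genes Mfng had nearly the same log2 fold change in both sets, and passed in 1. In the Pomc-high tumours it was 45.9, 49.4 and 72.2 CPM (lowest, median, highest) against 35.8, 39.3, 39.9 and 16.3 CPM, T8 being the lowest. The ranges did not overlap, but the log2 fold change of -0.75 ± 0.25 did not pass (adjusted p = 0.0809; with DESeq2 0.0175, in 1 fit of all 17 libraries 0.0419), and it was -0.51 without T8. Mfng in the Calca-high tumours was 48.7, 41.0 and 57.4 CPM against 28.1, 22.7, 34.6 and 30.1 CPM, all 4 below all 3, and it fell by 0.75 on the log2 scale (SE 0.16, adjusted p = 0.00916). That call was kept without each of the 7 tumours in turn, as was that of Dll3.

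Rfng, whose enzyme modifies receptors as the other Fringes do, was 45.2, 49.3 and 52.6 CPM (lowest, median, highest) against 47.0, 38.2, 44.3 and 39.8 CPM in the Pomc-high tumours (-0.20 ± 0.09, adjusted p = 0.192). Calca-high levels were 43.1, 43.2 and 49.6 CPM against 34.1, 29.8, 37.1 and 38.8 CPM. These did not overlap, and Rfng fell by 0.36 on the log2 scale (SE 0.11, adjusted p = 0.0355), a call lost in 6 of the 7 fits that left out 1 tumour, with log2 fold changes between -0.42 and -0.29.

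Lfng, which tunes Notch responses in the segmenting embryo, had opposite signs in the sets. It was 9.93, 16.5 and 21.6 CPM (lowest, median, highest) against 8.64, 13.04, 11.0 and 11.8 CPM in the Pomc-high tumours (-0.52 ± 0.20, adjusted p = 0.128), and passed without Rb1/Trp53 T2 (-0.64, adjusted p = 0.0357). It was 42.2, 52.1 and 32.1 CPM against 47.7, 57.3, 82.8 and 44.1 CPM in the Calca-high tumours (0.47 ± 0.25, adjusted p = 0.167), with T3 of the Rb1/Trp53/Crebbp group the highest. Neither difference passed, while the difference between the sets did (-1.001 ± 0.33, adjusted p = 0.0393), a call lost in 10 of the 17 fits without 1 tumour and with limma-voom (adjusted p = 0.0746).

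Across both sets together, 4 of the 10 members passed (Notch3, Notch4, Mfng and Rfng, all lower). This comparison shares its tumours with those above, and its fit had no term for the set. There 3.86% of 14338 genes changed and 2.05% fell. With the set as a term the same 4 members passed, but so did 2575 of the 14338 genes. The share of all genes called thus depends on that term. Without a term for the set, the call of Rfng was lost in 15 of the 17 fits without 1 tumour (adjusted p up to 0.124). It was also lost with DESeq2 size factors (0.0551) and with no low-count filter (0.0628). The call of Notch3 was lost in 4 of those 17 fits, without Rb1/Trp53 T6 or Rb1/Trp53/Crebbp T1, T2 or T6 (adjusted p up to 0.0586). On the TMM scale no Rb1/Trp53/Crebbp tumour reached the lowest Rb1/Trp53 tumour for Notch4 (11.7 against 11.8 CPM) or Mfng (39.9 against 41.0 CPM), which held for 0.453% of genes in that direction and 0.718% in either. These gaps were small, and on plain CPM 0 members were so separated.

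The order of the members differed between the sets in part. Per kilobase of exon, Dll3 had the highest median of the 10 in Pomc-high tumours, at 33.9 CPM per kb, followed by Mfng (24.9) and Rfng (22.0), whose ranges overlapped that of the gene above. Lfng came next at 5.90 CPM per kb, below the range of Rfng in all 10 libraries. The receptors lay between 0.895 CPM per kb (Notch1) and 2.17 CPM per kb (Notch4), and Dll1 was last at 0.346 CPM per kb. In Calca-high tumours the 3 Fringe genes led, at medians of 20.7 (Lfng), 18.5 (Mfng) and 18.3 CPM per kb (Rfng) with overlapping ranges, and Dll3 followed at 3.99 CPM per kb with a range of 1.63 to 32.3.

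Notch1, Notch2, Dll1 and Lfng were higher in every Calca-high than in any Pomc-high tumour, by 1.83, 3.04, 7.12 and 3.51 times at the median, and the ranges of the other 6 overlapped. This is a description without a test, since the sets were defined from the same counts, and 22.6% of genes were separated in this way in either direction, 11.6% with Calca-high higher. Dll3 had a median 8.50 times higher in Pomc-high tumours, with ranges that overlapped through Calca-high T1.

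**Figure D3:**
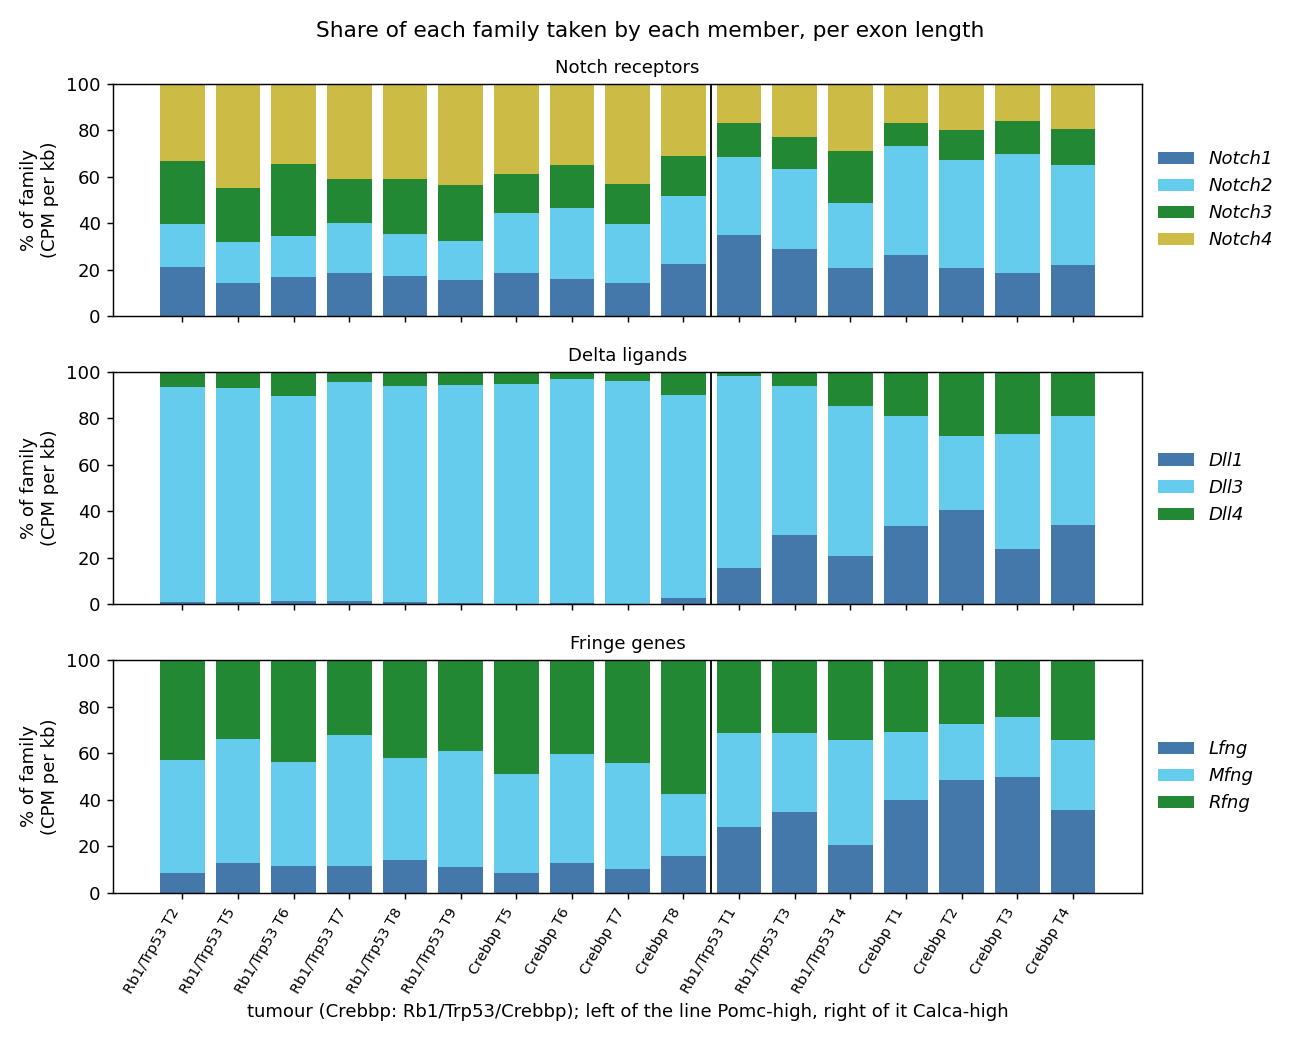
Share of each family's CPM per kb taken by each member in each tumour, as stacked bars from 0 to 100%; Pomc-high tumours are left of the line. Dll3 takes 87.3% to 96.6% of the Delta ligands in Pomc-high tumours and 31.6% to 82.4% in Calca-high ones.

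Shares within a family do not depend on library scaling. Of the Delta ligands per length, Dll3 made 87.3% to 96.6% in the 10 Pomc-high tumours and Dll1 0.0719% to 2.61%. In the Calca-high tumours Dll3 made 64.0% to 82.4% in the 3 Rb1/Trp53 and 31.6% to 49.3% in the 4 Rb1/Trp53/Crebbp tumours, and Dll4 made 1.81% to 14.9% and 19.0% to 27.8%. Among the receptors Notch2 took a larger share in every Rb1/Trp53/Crebbp tumour of either set: 25.0% to 30.5% against 16.6% to 21.4% in Pomc-high, and 43.1% to 51.4% against 27.9% to 34.3% in Calca-high tumours. Its own CPM ranges overlapped in both sets, and a share also rises where the other receptors are lower. Lfng made 8.30% to 15.6% of the Fringe genes in Pomc-high and 20.5% to 49.9% in Calca-high tumours. The shares carry no test.

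The members known from vessels were set beside markers of those cells, since in bulk tumours fewer cells of a type and less RNA per cell cannot be told apart. The 20 endothelial markers summed to 110 to 171 CPM in the 6 Pomc-high Rb1/Trp53 tumours and 57.4 to 133 CPM in the 4 Rb1/Trp53/Crebbp tumours, with T8 the highest of the 4. The log2 difference of -0.84 had an exact two-sided permutation p = 0.0286 (adjusted over 4 tests 0.114). On plain CPM it was -0.71 with an exact p = 0.0667. In the Calca-high tumours the sums were 205 to 224 CPM and 118 to 155 CPM, without overlap, a log2 difference of -0.71 with an exact p = 0.0571, the smallest that 3 against 4 tumours allow. Of the endothelial markers tested, 3 of 18 fell in Pomc-high (Kdr, Ptprb and Plvap) and 11 of 19 in Calca-high tumours, and 0 rose. Over all tested genes 5.26% fell in Pomc-high and 17.1% in Calca-high tumours. No marker of either vascular list was at 0 in a group. The mural sum differed by -0.43 (exact p = 0.248) and -0.86 (exact p = 0.114).

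**Figure D4:**
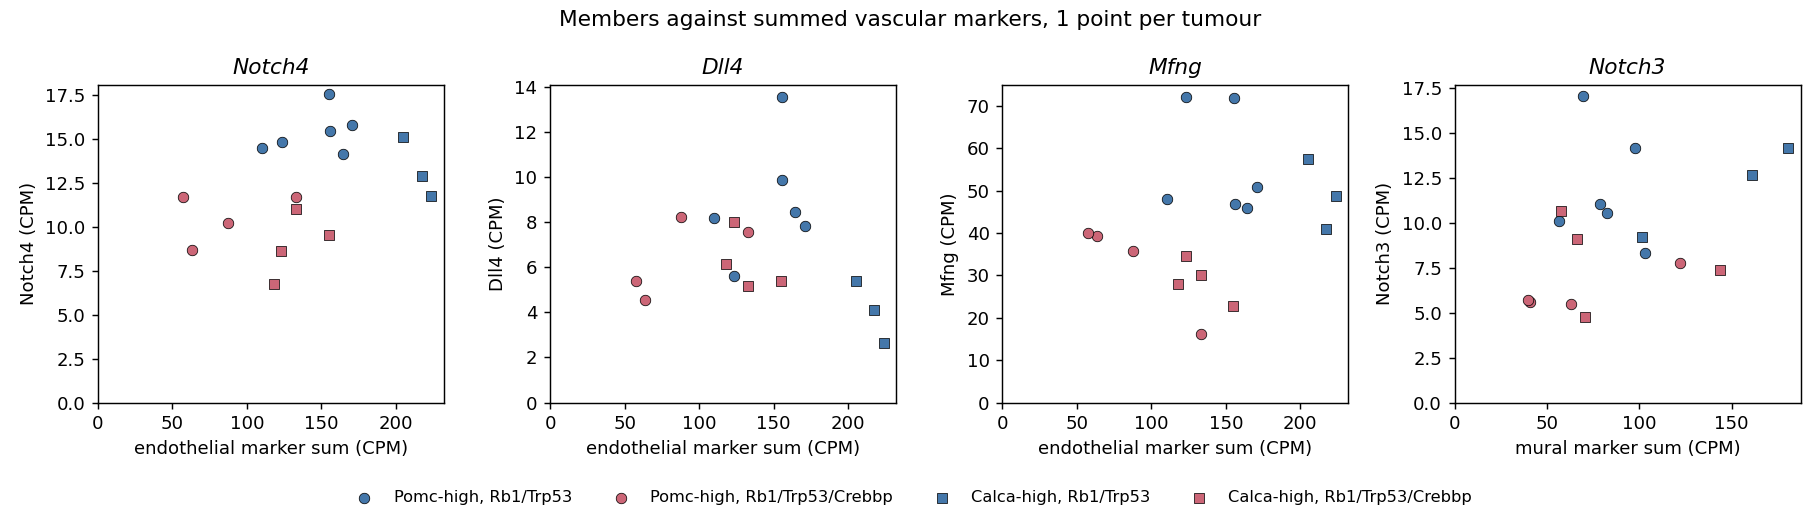
CPM of Notch4, Dll4 and Mfng against the summed CPM of 20 endothelial markers and of Notch3 against 11 mural markers, 1 point per tumour, linear axes. On this TMM scale Notch4 is lower in every Rb1/Trp53/Crebbp tumour, and Mfng is lowest in Pomc-high T8, which has 133 CPM of endothelial markers.

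Per endothelial sum the Notch4 difference was above 0 in both sets and did not pass a test. The ratio was 0.0862 to 0.131 against 0.0876 to 0.203 in Pomc-high (log2 difference 0.30, exact p = 0.267) and 0.0525 to 0.0736 against 0.0572 to 0.0826 in Calca-high tumours (0.13, exact p = 0.514). Dll4 per endothelial sum was 0.0119 to 0.0262 against 0.0347 to 0.0648 in Calca-high tumours, higher in all 4 Rb1/Trp53/Crebbp tumours, by 1.35 on the log2 scale (exact p = 0.0571, the smallest possible, adjusted over 6 tests 0.343). In Pomc-high tumours the difference was 0.38 (exact p = 0.152). Notch3 per mural sum differed by -0.50 (exact p = 0.219) in Pomc-high and 0.23 (exact p = 0.743) in Calca-high tumours, with overlapping ranges.

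With the endothelial sum as a term of the fit, 8.74% of genes passed in the Pomc-high tumours. Notch4 had -0.41 ± 0.20 (adjusted p = 0.247) against -0.52 ± 0.12 without the term, and Notch3 -0.52 ± 0.29 (adjusted p = 0.326) against -0.92 ± 0.20, so neither passed and both SEs were larger. Mfng passed, at -1.52 ± 0.32 (adjusted p = 0.0127). In this set the endothelial sums of Rb1/Trp53/Crebbp T5, T6 and T7 were 87.5, 63.4 and 57.4 CPM, below all Rb1/Trp53 sums (110 CPM or more). T8 alone, at 133 CPM, overlapped them, so genotype and endothelial level were largely confounded here too. T8 also had the lowest Mfng of the set (16.3 CPM), and the fit with this term was not run without T8. In the Calca-high tumours 1 of 14797 genes passed with that term, so genotype and endothelial level cannot be told apart there. With the mural sum as a term Notch3, Notch4 and Mfng passed in the Pomc-high tumours, where 12.3% of genes did. In the Calca-high tumours 0 members and 8.63% of genes passed, while the log2 fold changes were larger in size and in SE: -2.92 ± 0.98 for Dll3, -0.86 ± 0.25 for Mfng and -0.49 ± 0.15 for Rfng.

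Within the 10 Pomc-high tumours Notch4 had r = 0.79 and rho = 0.73 with the endothelial sum (permutation p = 0.0125 and 0.0202, adjusted over 40 relations 0.0873 and 0.20), and r = 0.73 without the 2 tumours farthest from the median. Notch3 had r = 0.84 and rho = 0.82 with the same sum (permutation p = 0.00188 and 0.0063, adjusted 0.0708 and 0.20; r = 0.79 without 2). Dll4 had r = 0.71 and rho = 0.61 (permutation p = 0.0206 and 0.0678, adjusted 0.103 and 0.301), and r = 0.32 without 2, so the relation rests on those tumours. In the 7 Calca-high tumours Dll4 had r = -0.78 and rho = -0.86 with that sum (exact permutation p = 0.0131 and 0.0238, adjusted 0.0873 and 0.20; r = -0.52 without 2). In the Pomc-high tumours Notch3 had r = 0.47 with the mural sum (permutation p = 0.171, adjusted 0.325), and -0.026 without 2. Notch1 there had r = 0.80 with the endothelial and 0.84 with the mural sum (permutation p = 0.00636 and 0.00354, adjusted 0.0736 and 0.0708). Without 2 tumours these were 0.46 and 0.61. Dll3 had r = -0.67 with the mural sum (permutation p = 0.00736, adjusted 0.0736). None of the 40 relations passed after adjustment. On plain CPM 3 passed (Notch1 and Notch3 with the endothelial and Notch1 with the mural sum, all in Pomc-high tumours, each adjusted p = 0.0333). Both genotypes enter these relations, and the genotypes differ in the marker sum. Over the 17 libraries, with the means of the 4 groups of genotype and set removed, r with the endothelial sum was lower for the vascular members. It was 0.31 for Notch4, 0.35 for Dll4, 0.42 for Notch3 and 0.60 for Notch1. It was below 0 for Dll3, Lfng, Rfng and Mfng (-0.71 for Mfng). Notch3 had 0.17 with the mural sum. These values carry no test.

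Sums of several other marker lists also differed between the genotypes. Beside the counts below, 17.1% of all tested genes fell and 19.1% rose in the Calca-high tumours. In the Calca-high tumours Rb1/Trp53/Crebbp was lower without overlap for the neuroendocrine list (5209 to 8255 against 11585 to 14785 CPM, 4 of 5 genes fell), for Calca-cell genes (34759 to 67716 against 118175 to 177244 CPM, 3 of 3 fell) and for thyroid follicle genes (916 to 1287 against 2093 to 16778 CPM, 4 of 4 fell). The same held for fat-cell genes (0.183 to 1.27 against 5.57 to 49.9 CPM, 3 of 3 fell), macrophage genes (55.5 to 126 against 145 to 189 CPM, 4 of 9 fell; overlapping at 142.4 and 142.3 on plain CPM) and lymphocyte genes (3.14 to 8.54 against 16.2 to 35.8 CPM, 1 of 1 tested fell, Ms4a1 at 0 in both groups). Ranges overlapped for the lung list (38.2 to 63.2 against 62.1 to 160 CPM, 1 of 3 rose and 2 fell), the fibroblast list (170 to 608 against 541 to 835 CPM, 0 of 6 passed) and the astroglia and pituicyte list. The last had the higher median in Rb1/Trp53/Crebbp tumours of both sets, 265 against 188 CPM in Calca-high (2 of 5 tested genes fell) and 185 against 149 CPM in Pomc-high tumours (0 of 5 passed). In the Pomc-high tumours the neuroendocrine sum was 6074 to 7948 against 8650 to 10639 CPM. The part of these lists in the differences of Dll3, Mfng, Rfng, Notch3 and Notch4 was not tested.

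The other genes of the pathway, a list of 43, gave 5 that fell and 0 that rose among 42 tested in Pomc-high tumours, against 8.42% of all genes called and 5.26% falling, with a median log2 fold change of 0.0032, and fits without 1 tumour called 1 (without Rb1/Trp53/Crebbp T7 or T8) to 3. In Calca-high tumours 7 rose and 7 fell among 41, with a median of -0.06, a share near the 36.2% of all genes, and fits without 1 tumour called 8 (without Rb1/Trp53/Crebbp T3) to 13. Hes1, the repressor switched on by Notch, fell in both sets: from 3.67, 4.97 and 7.03 CPM (lowest, median, highest) to between 2.42 and 3.02 CPM in Pomc-high tumours (-0.82 ± 0.22, adjusted p = 0.0394), and from between 13.6 and 29.4 CPM to between 5.49 and 7.70 CPM in Calca-high tumours (-1.64 ± 0.27, adjusted p = 0.00337). The ranges did not overlap in either set. Psen2, a catalytic subunit of the gamma-secretase that frees the receptor's inner part, also fell in both (-0.50 ± 0.12 and -0.54 ± 0.11). As 1 pathway gene was called in Pomc-high tumours without Rb1/Trp53/Crebbp T7 or T8, Hes1 and Psen2 did not both keep their calls there.

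Of the other targets, Heyl (-1.35 ± 0.23) and Hey2 (-1.28 ± 0.34) fell in Calca-high tumours, while Hey1 had values of 0.34 ± 0.17 in Pomc-high and 0.47 ± 0.30 in Calca-high tumours that did not pass. Among the ligands Jag2, at 83.7 to 123 CPM in Pomc-high Rb1/Trp53 tumours, fell to 63.0 to 79.6 CPM (-0.47 ± 0.11, adjusted p = 0.0219). On plain CPM its ranges overlapped, at 74.9 to 121 against 67.6 to 80.3 CPM. Jag1 did not pass in either set. The coactivator gene Maml3 fell in Pomc-high (-0.63 ± 0.17) and rose in Calca-high tumours (0.38 ± 0.10), and this difference passed a test of its own (-1.01 ± 0.24, adjusted p = 0.00794).

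In Calca-high tumours Mib1, the ubiquitin ligase that lets ligands be taken up, rose from between 14.1 and 18.8 CPM to between 38.3 and 77.6 CPM (1.84 ± 0.23, adjusted p = 0.0017). Dlk2, a Delta-like protein, rose by 1.86 ± 0.29, the corepressor Spen by 0.77 ± 0.11, Maml2 by 0.59 ± 0.19, the Notch inhibitor Numb by 0.57 ± 0.16 and the protease Adam10 by 0.37 ± 0.11. The gamma-secretase genes Psenen (-0.76 ± 0.11) and Aph1c (-0.69 ± 0.23) and the ligase Dtx2 (-0.58 ± 0.12) fell. Rbpj and Hes6 did not pass in either set.

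**Figure D5:**
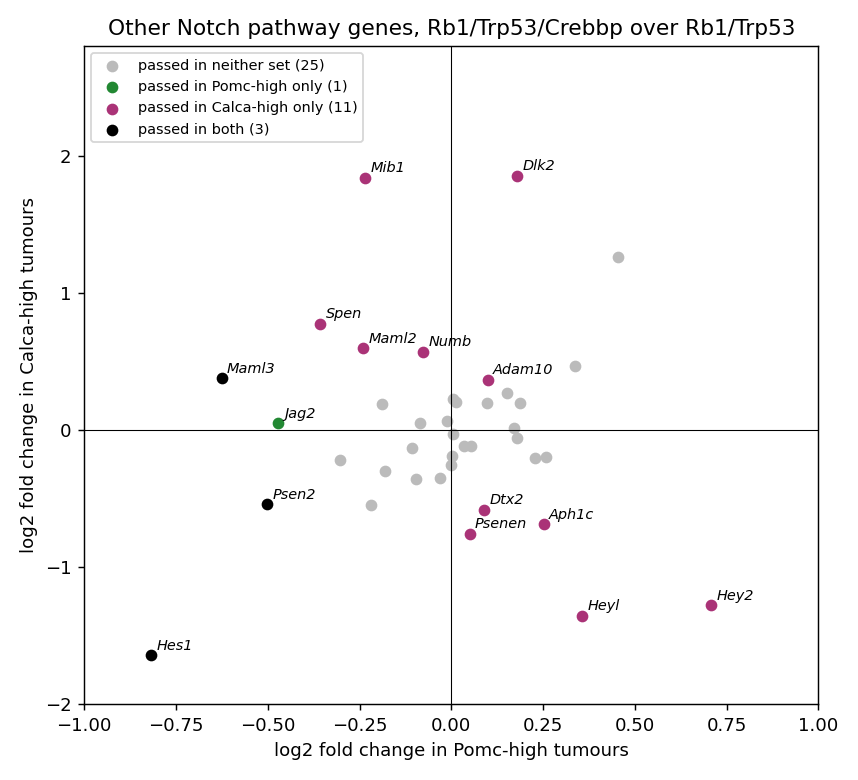
Log2 fold changes of 40 other pathway genes in Pomc-high (x) and Calca-high tumours (y), coloured by where they passed an adjusted p under 0.05. Hes1, Psen2 and Maml3 passed in both sets, Maml3 with opposite signs.

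Over the 17 libraries, after the means of the 4 groups of genotype and set were removed, the 3 genes most like each member were sought among 11111 genes. For Notch1 they were Peli2 (r = 0.90), Cacna2d2 and Pdxk, for Notch2 Pdxk (0.88), Arrb1 and Zdhhc17, for Notch3 Peg13 (0.92), Pi4ka and Atp8b2, and for Notch4 Atp6v0e2 (0.80), Pip4k2b and Cyb561d2. For Dll1 they were Pnoc (0.90), Ceacam10 and Acsl3, for Dll3 Gng4 (0.85), Slco4a1 and Fam65a, and for Dll4 Ppfia3 (0.89), Rnf19b and Tnk2. For Lfng they were Nudt21 (0.82), Mbip and Klf10, for Mfng Abcf2 (0.84), Gtf2h3 and Pitpnb, and for Rfng Acap3 (0.90), Mapk11 and Bop1. On plain CPM the first gene changed for Mfng and Rfng. Of the 50 genes most like each member, 0 were endothelial or mural markers. Only 12 endothelial and 7 mural markers were among the 11111 genes, so a count of 0 was likely in any case and says little. These values are the highest of many and are given as a description.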

How the data were processed

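RNA of 17 tumours was prepared with TRIzol and a poly(A) kit, per the labels. The deposited files hold whole-number read counts per gene symbol. The submitters' processing notes name bcl2fastq 1.8.2, TopHat2 2.0.12, HTSeq 0.6.1 and the mm9 build. The strand setting of the counting is not given in the sources used here. Rows that name no gene (reads on no gene were 11.7% to 21.7% per library) were left out. Genotype was tested within each set, over all 17 and as a difference between sets with the edgeR 4.0.16 quasi-likelihood test after edgeR's count filter, with Benjamini-Hochberg adjustment over all genes and a threshold of 0.05. The fits were tested on simulated data. DESeq2 1.42.0, limma-voom (limma 3.58.1) and the settings in the closing section were alternatives. Marker sums and ratios were compared by exact permutation, and correlations in the larger set used 100000 permutations (scipy 1.17.1). Exon lengths came from GENCODE on GRCm38, not mm9. The members, lists and motifs were chosen with earlier results of these data known. All 10 members are named, with Jag1, Jag2, Hes1, Hey1, Hes6, Rbpj and the pathway genes that passed, of which 1 is not reported here. The genes most like a member are the 3 with the highest r among genes of at least 5 CPM on average. TMM-scaled CPM replaced plain CPM for levels after both had been seen, and plain CPM is given beside results that it changes.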

Additional observations from a re-analysis of the deposited data

Results flagged for a closer look

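Of 36 groups of 4 or 6 tumours examined, 2 held a tumour far from the others, and chance gives about 1 in 20. Notch3 was 7.78 CPM in Pomc-high Rb1/Trp53/Crebbp T8 and 5.48 to 5.72 CPM in the other 3. The mural marker sum was 143.9 CPM in Calca-high Rb1/Trp53/Crebbp T2 and 57.5 to 70.8 CPM in the other 3.

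The genotype difference differed between the sets, by edgeR's test of that difference with Benjamini-Hochberg adjustment, for 2 members and 8 other pathway genes. Each value is the log2 difference in Pomc-high minus that in Calca-high tumours. It was above 0 for Dll3 (2.37), Hey2 (1.97), Aph1c (0.93), Psenen (0.80) and Dtx2 (0.66). It was below 0 for Mib1 (-2.08), Dlk2 (-1.68), Spen (-1.14), Maml3 (-1.01) and Lfng (-1.001). Over all genes 22.9% passed this test.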

How the results depend on the processing

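Values that changed sign, and counts of members called that moved, are given here with the share of all genes called; most changes of single calls stand in the report beside their genes. The cause was not tested. In Pomc-high tumours Dll3 was -0.055 with limma-voom and, with the endothelial sum as a term, -0.57 (Notch1 0.24, Dll4 0.022, 1 member called, 8.74% of genes), and with the mural sum -0.26. In Calca-high tumours DESeq2 called 6 members (41.0% of genes), and fits with the endothelial or mural sum 0 (0.00676% and 8.63%), and Dll4 was -0.44 with the endothelial sum. Over all 17, Dll4 was 0.023 with limma-voom, Lfng -0.10 with the set as a term, Notch1 0.60 and Dll1 2.17 with the endothelial sum (7 called, 33.4% of genes), and Notch1 0.11 and Dll1 0.91 with the mural sum. The difference between sets was 0.0041 (DESeq2 size factors), 0.0061 (DESeq2) and 0.11 (mural sum) for Mfng, -0.056 (limma-voom) and -0.024 (mural sum) for Notch4 and -0.18 (limma-voom) for Dll1, with 1 called with the mural sum (20.8% of genes).

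Tumour numbers shared between genotypes did not pair the tumours (correlations of -0.159 to 0.216). With the replicate block 0 members and 0 other pathway genes were called in Pomc-high tumours (2.53% of genes, Dll3 -0.044). In Calca-high tumours 1 member was called, Dll3 (18.2%), and over all 17 there were 2, Notch4 and Mfng (430 of 14338 genes). For the difference between sets 1 was called, Lfng (8.12%, Dll1 -0.36), while Dll3 did not pass (1.73, adjusted p = 0.0807). Of 7 pairs, 1 correlated best with its own number.

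Plain CPM was chosen as an alternative after seeing the data. The endothelial sum in Pomc-high tumours then differed by -0.71. With plain marker sums as terms, Pomc-high Notch1 was 0.082 and Dll3 -0.46 (endothelial, 1 called, 11.4% of genes) and -0.19 (mural). Calca-high Dll4 was -0.073, with 0 called (endothelial, 0.00676%) and 1 called (mural, 17.1%). Over all 17 Notch1 was 0.24 and Dll1 1.16 (endothelial) and 0.47 (mural). For the difference between sets Notch4 was -0.015 and Mfng 0.074, with 1 called (mural, 22.1%).

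Leaving out each tumour gave -0.10 to 0.25 for Dll3 in Pomc-high tumours (1 to 3 called; 1 without Rb1/Trp53/Crebbp T5), and -0.74 to 0.078 for Dll1 over all 17 (2 to 4 called). For the difference between sets it gave -0.44 to 0.63 for Dll1, -0.14 to 0.28 for Mfng, -0.24 to 0.052 for Notch2 and -0.10 to 0.17 for Notch4 (1 to 2 called), and Dll4 passed in 3 of those 17 fits. The endothelial sum in Pomc-high tumours ranged from -1.08 to -0.68, the mural sum from -0.77 to -0.23, and Notch3 per mural sum in Calca-high from -0.082 to 0.53. Dll1 in Pomc-high tumours rests on few reads, 1 to 23 in the Rb1/Trp53/Crebbp libraries.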
